A study of Mus musculus with 6 samples.

Results

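The last steps of mitochondrial respiration were examined in hematopoietic stem and progenitor cells (HSPCs) that lack ING4. The genes were all protein-coding mouse genes whose symbols mark them as nuclear-encoded subunits of complex III (Uqcr genes and Cyc1), complex IV (Cox4 to Cox8 genes) or ATP synthase (Atp5 genes). This rule gave 44 of the 49315 genes in the count tables, 9 for complex III, 18 for complex IV and 17 for ATP synthase. It used symbols only and no measured value.

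RNA was sequenced in bulk from 6 libraries. Long-term stem cells (LT-HSCs), short-term stem cells (ST-HSCs) and multipotent progenitors (MPPs) were sorted as LSK cells without CD48 from the lineage-depleted marrow of WT mice (C57BL/6 in the study's methods) and of ING4-/- mice, which lack the chromatin reader ING4. LT-HSCs carried CD150 but not CD34, ST-HSCs carried both and MPPs CD34 alone. Both genotypes were CD45.2, and the labels give no treatment and no age. The study's methods give an age range, that of young adult mice, for WT controls. The marrow of several mice of a genotype was pooled before the sort, and each population gave 1 library per genotype. The study compared the 3 ING4-/- populations together with the 3 WT populations, so the populations stand in for replicates, and p-values measure the spread between these libraries and not between mice.

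Complex III passes electrons from ubiquinol to cytochrome c, and complex IV, cytochrome c oxidase, passes them on to oxygen. Both pump protons out of the matrix, and ATP synthase lets protons flow back through a rotating ring of c subunits to drive ATP synthesis in its F1 head. A few subunits are made from the mitochondrial genome and all others from nuclear genes, several of which exist as a widely expressed isoform and as an isoform typical of muscle, lung or testis. Hematopoietic stem cells are known to rely mainly on glycolysis at rest and to increase oxidative phosphorylation when they are activated or differentiate.

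The promoters of 4 genes are shown because they hold, or lack, the short sequences bound by factors known for nuclear respiratory genes. Each is the RefSeq sequence upstream of the annotated start on the minus strand of GRCm38.p6, read 5′ to 3′ and ended where the gene model begins. Capitals mark the NRF1 motif, the ETS letters CCGGAAG and the SP1 letters GGGCGG on either strand. Cox6a1 (chr5:115348982-115349208) encodes the general isoform of subunit 6a, Atp5h (chr11:115419963-115420169) a stalk subunit of ATP synthase, Uqcr11 (chr10:80406831-80407071) a small subunit of complex III and Cox6b2 (chr7:4753095-4753344) the testis isoform of subunit 6b.
Cox6a1: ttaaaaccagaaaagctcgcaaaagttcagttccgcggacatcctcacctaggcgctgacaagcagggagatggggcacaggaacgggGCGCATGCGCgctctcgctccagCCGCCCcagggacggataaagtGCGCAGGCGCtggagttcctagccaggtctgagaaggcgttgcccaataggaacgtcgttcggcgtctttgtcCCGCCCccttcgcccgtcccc
Atp5h: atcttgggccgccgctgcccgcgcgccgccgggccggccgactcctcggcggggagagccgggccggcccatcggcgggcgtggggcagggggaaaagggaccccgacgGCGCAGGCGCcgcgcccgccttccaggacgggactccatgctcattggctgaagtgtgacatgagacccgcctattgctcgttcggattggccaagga
Uqcr11: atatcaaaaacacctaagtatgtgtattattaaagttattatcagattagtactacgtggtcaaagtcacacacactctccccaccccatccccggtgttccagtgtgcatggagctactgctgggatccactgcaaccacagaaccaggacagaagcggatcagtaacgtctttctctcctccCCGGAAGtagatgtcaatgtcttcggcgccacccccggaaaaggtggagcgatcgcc
Cox6b2: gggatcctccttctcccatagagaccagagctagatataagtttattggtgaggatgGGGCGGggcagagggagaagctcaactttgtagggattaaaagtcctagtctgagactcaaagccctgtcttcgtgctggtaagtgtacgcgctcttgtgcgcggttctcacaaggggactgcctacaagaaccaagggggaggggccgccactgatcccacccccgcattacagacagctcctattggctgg
Cox6a1 held NRF1 letters at -162 and -117, counted from the RefSeq start, Atp5h at -141, and Uqcr11 held ETS letters at -66. The Cox6b2 window had SP1 letters only. RefSeq windows, from 250 bases before to 50 bases after a start, were found for 33 of the 44 genes. The NRF1 letters were in the windows of 8 of these 33 genes (24.2%), against 5.19% of all 27025 genes with a window and 7.17% of 17492 protein-coding genes. ETS letters were found for 10 genes (30.3%), against 9.93% and 12.9%. The SP1 letters were found for 36.4% of these genes, against 38.2% of all genes and 49.2% of protein-coding genes. The YY1 letters AAGATGGCG occurred for 2 genes (6.06%, against 1.64% of all genes) and the CREB letters TGACGTCA for 1 (3.03%, against 2.03%). The NRF1 letters occurred in 6 of 15 ATP synthase genes, 1 of 13 complex IV genes and 1 of 5 complex III genes. A match is a description of letters and not a bound site.

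Total counts were 7839326 to 9363442 in WT and 35596876 to 39192588 in ING4-/- libraries. Ing4 had 247, 162 and 247 counts in WT and 0, 24 and 76 counts in ING4-/-, in the order LT-HSCs, ST-HSCs and MPPs (log2 fold change -4.49 ± 1.56, adjusted p = 0.0373 by edgeR). In WT there were also reads on genes that marrow cells do not use. Olfactory and vomeronasal receptor genes carried 18.1 to 22.7 counts per kb of exon in WT and at most 0.0851 in ING4-/-. At this density 22.6 to 33.4% of all WT counts would be background, and for Ing4 119, 121 and 96.2 of its WT counts. All 5 sort markers had counts in both genotypes. Cd48, which the gates exclude, was at 5.27, 16.6 and 36.9 CPM in WT and 0, 34.1 and 127 CPM in ING4-/-. It was above background in ST-HSCs and MPPs of both genotypes and not called (adjusted p = 0.530 by edgeR). Ly6a (Sca-1) was at 49.3, 33.5 and 61.0 CPM in WT and 401, 64.8 and 166 CPM in ING4-/-. It was called higher (log2 fold change 2.14 ± 0.64, adjusted p = 0.0205 by edgeR). Slamf1 (CD150) was at 104, 81.3 and 33.0 CPM in WT and 111, 28.1 and 8.81 CPM in ING4-/-. Slamf1, Kit and Cd34 were not called. The 3 T cell markers summed to 30.8 to 44.2 CPM (counts scaled to the TMM-normalized library total) in WT and at most 0.0590 CPM in ING4-/-, where Cd3e and Cd3g were at 0. The 5 erythroid markers, all of which had counts in both genotypes, summed to 7.75 to 14.4 CPM in WT and 82.9 to 143.5 CPM in ING4-/-, and the 7 granulocyte markers to 31.2 to 185 CPM and 69.3 to 316 CPM, with Ly6g at 0 in ING4-/-. The part of background and of these cells in the differences below was not tested except by the alternatives named. In bulk RNA, more cells of a type and more RNA per cell cannot be told apart.

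The nuclear-encoded subunits of all 3 complexes were higher in ING4-/- HSPCs. Of the 44 genes, 40 had enough counts to be tested and 37 rose, by 2.17- to 5.69-fold. All 9 genes of complex III rose, with a median log2 fold change of 1.75. In complex IV 12 of 14 tested genes rose (median 1.87), and in ATP synthase 16 of 17 (median 1.86). A call needed an adjusted p under 0.05 and a log2 fold change over 1 in edgeR's quasi-likelihood test on TMM-normalized counts, where TMM scales each library by the genes it shares with the others. Higher calls made up 7.98% of all 31001 genes tested and lower calls 56.7%, with a median of -6.85 on the log2 scale. Adjusted p-values of the 37 genes were 0.000657 to 0.0201. With population as a block in the edgeR model they were 0.00821 to 0.0369, and all 37 calls remained.

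In each of these 37 genes the lowest ING4-/- library was above the highest WT library, by 1.24 to 4.01 times. Over all genes tested, 12% had no overlap in this direction. The remaining tested genes were Cox7b2, which fell, and Cox4i2 and Atp5s, which were not called. Cox6a2, Cox7a1, Cox8b and Cox8c had too few counts to be tested.

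**Figure D1:**
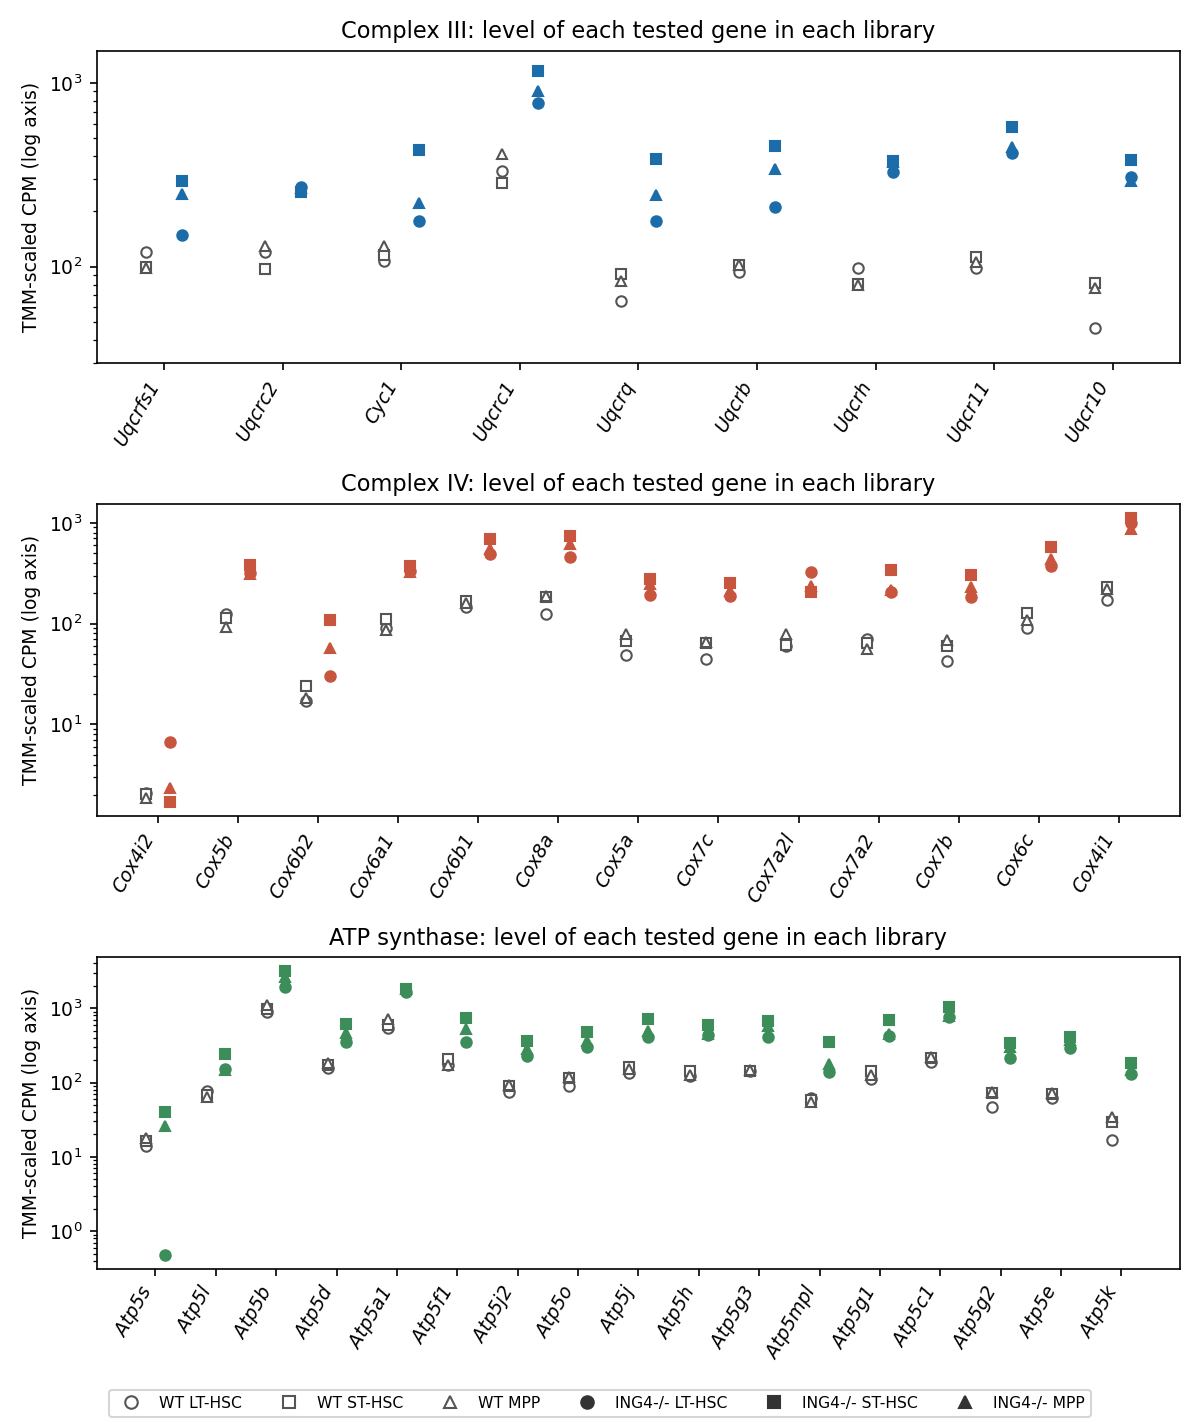
Level of each tested gene of complex III, complex IV and ATP synthase (x axis) in each of the 6 libraries (y axis, TMM-scaled CPM on a log axis). Open symbols are WT and filled symbols ING4-/- libraries, with circles for LT-HSCs, squares for ST-HSCs and triangles for MPPs. Cox7b2, at 0 in ING4-/-, is not drawn. Filled symbols stand above open ones in 37 genes, and the groups overlap in Cox4i2 and Atp5s.

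Fewer genes were called under several alternatives. The count was 32 with DESeq2 size factors, 33 with the DESeq2 test, 33 with protein-coding genes only and 35 after thinning to the smallest total. It was 18 with background subtraction and a minimum of 10 counts together. With a minimum of 10 counts in every library, the median of all 9673 genes moved to 0.02, and 29 of the 37 genes were called, against 8.3% of all genes. The medians were then 1.24, 1.38 and 1.35 in complex III, complex IV and ATP synthase. With the WT background subtracted, 25 genes were called higher, 24 of them among the 37, against 5.6% of 19744 genes. With the count minimum and each library's trend on exonic length removed, 12 were called, against 4.65%. These were Uqcr10 of complex III, Cox4i1 and Cox6c of complex IV and 9 genes of ATP synthase.

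The log2 fold change of the 37 genes was 0.33 to 1.77 after background subtraction. After removal of the length trend, 35 of the 37 were above 0, the exceptions being Uqcrfs1 (-0.10) and Cyc1 (-0.028). Estimated background made up 0.509 to 23.4% of the WT counts of these genes (median 3.18%). Across the 37 genes, the log2 fold change was lower in genes with a longer main transcript (Spearman's rho -0.58, or -0.22 after removal of the length trend). For exonic length, on which the trend was fitted, rho was -0.39 before and 0.43 after removal, so the sign reversed. These genes share the same 6 libraries, so the relation is a description only.

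**Figure D2:**
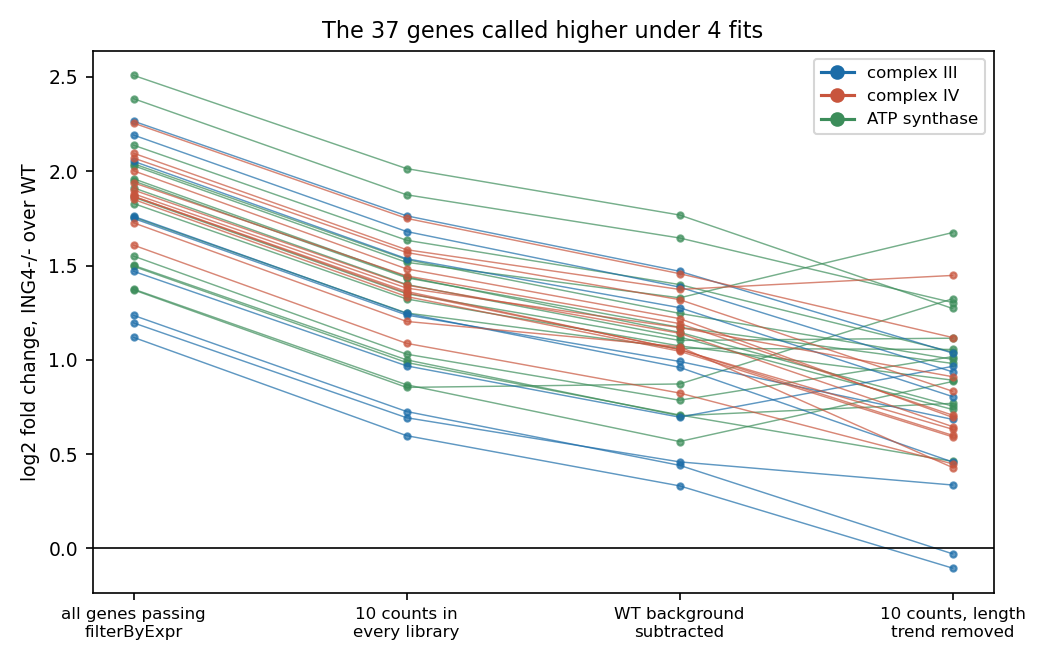
Log2 fold change of ING4-/- over WT (y axis) for the 37 genes called higher, each a line, under 4 fits (x axis), in blue for complex III, red for complex IV and green for ATP synthase. Values move down from 1.12 to 2.51 with all genes to 0.33 to 1.77 with the WT background subtracted, and 2 complex III genes lie below 0 once the length trend is removed.

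In complex III the small subunits had the highest fold changes. Uqcr10, a small membrane subunit, was at 46.3, 81.9 and 76.5 CPM in WT (LT-HSCs, then ST-HSCs, then MPPs) and 309.9, 380.2 and 295 CPM in the ING4-/- populations. Uqcr11, another small membrane subunit, was at 97.8, 113 and 106 CPM in WT and 418, 577 and 450.0 CPM in ING4-/-. Both were higher in every ING4-/- library, with log2 fold changes of 2.27 ± 0.27 (SE) and 2.19 ± 0.19 and adjusted p of 0.000657 and 0.000657 by edgeR. The hinge protein gene Uqcrh followed (2.05 ± 0.18), and Uqcrb (1.76 ± 0.29), whose product helps to bind ubiquinone, and Uqcrq (1.75 ± 0.33) were next.

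The redox and core subunits of complex III had the lowest fold changes of the complex. Uqcrfs1, which encodes the Rieske iron-sulfur protein, was at 119.6, 99.2 and 98.5 CPM in WT and 148, 293 and 248 CPM in ING4-/-. The groups did not overlap, but in LT-HSCs the log2 ratio was only 0.31, against 1.56 in ST-HSCs. Uqcrc2, a core protein on the matrix side, was at 119.9, 97.6 and 129.8 CPM in WT and 271, 256 and 269 CPM in ING4-/-. Log2 fold changes were 1.12 ± 0.28 for Uqcrfs1 and 1.20 ± 0.18 for Uqcrc2, with adjusted p of 0.00954 and 0.000954 by edgeR. Cyc1, which encodes cytochrome c1, was highest in ING4-/- ST-HSCs (432 CPM), and its log2 fold change was 1.24 ± 0.35 (adjusted p = 0.0158). Without ING4-/- ST-HSCs, Cyc1 and Uqcrfs1 were no longer called (log2 fold changes 0.79 and 0.93), and without WT MPPs Uqcrfs1 was not called either (0.92). Uqcrc1, the other core protein, rose by 1.47 ± 0.22.

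The 4 redox and core genes had a median of 1.22 and the 5 small subunits of 2.05, with ranges that did not overlap. With the count minimum the medians were 0.71 and 1.54, and no redox or core gene was called, against all 5 small subunits. With background subtraction they were 0.45 and 1.28. With the length trend removed the medians were 0.15 and 0.81 and the ranges overlapped. The grouping by role was made with these values known.

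**Figure D3:**
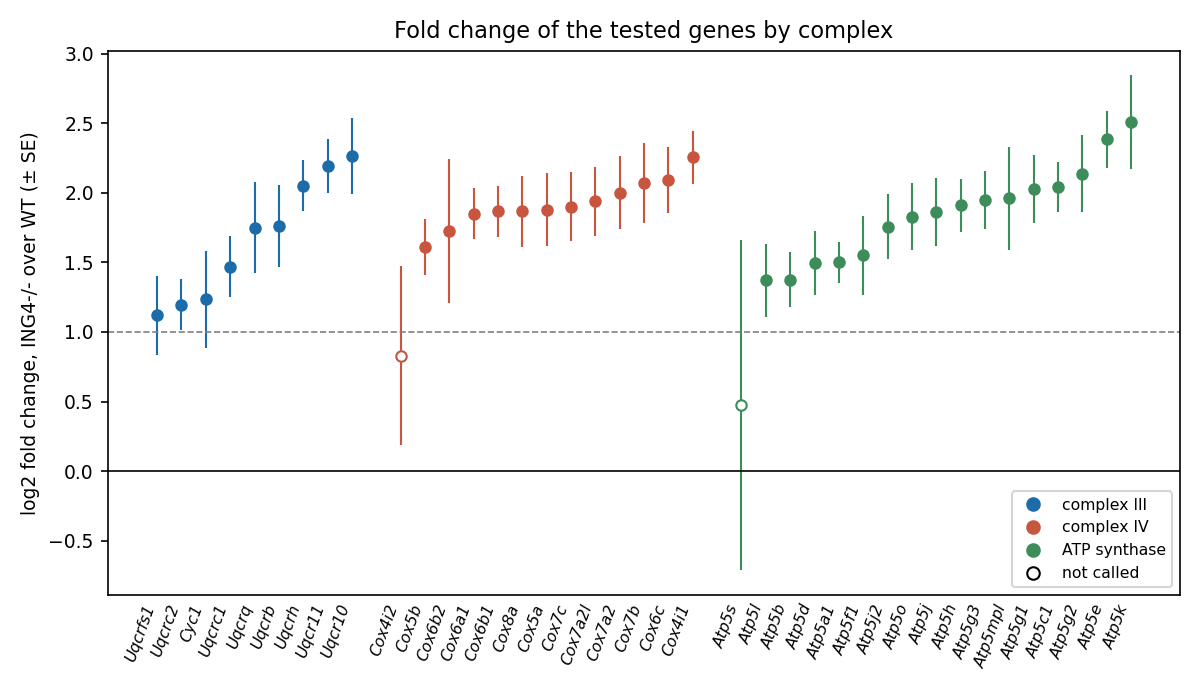
Log2 fold change of ING4-/- over WT with its standard error (y axis) for the tested genes (x axis), ordered within complex III (blue), complex IV (red) and ATP synthase (green). Filled points were called higher and open points were not called; the dashed line marks a log2 fold change of 1, and Cox7b2 at -9.30 lies outside the axis. Complex III starts at 1.12 with Uqcrfs1, and Atp5k has the highest value at 2.51.

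In complex IV the 11 widely expressed subunits rose within a narrow range, 1.61 to 2.26. Cox4i1, the general isoform of the large subunit 4, was at 170.1, 234 and 218 CPM in WT (LT-HSCs, then ST-HSCs, then MPPs) and 993, 1115 and 862 CPM in the ING4-/- populations. Its ING4-/- libraries were all over 3.69 times the highest WT library, and the log2 fold change was 2.26 ± 0.19 (adjusted p = 0.000657 by edgeR). Cox6c was at 89.8, 128 and 109.7 CPM in WT and 377, 579 and 443 CPM in ING4-/-, a log2 fold change of 2.10 ± 0.24. The lowest of the 11 was Cox5b, which encodes a zinc-binding subunit on the matrix side (1.61 ± 0.20), and its partner Cox5a rose by 1.88 ± 0.26. Cox7c, a small membrane subunit with no muscle isoform, rose by 1.90 ± 0.25. With the count minimum all 11 were called, with background subtraction 10, and with the length trend removed only Cox4i1 and Cox6c.

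The general isoforms of the other paired subunits also rose. Cox6a1 was at 90.3, 111 and 86.6 CPM in WT and 336, 375 and 327 CPM in ING4-/-, Cox6b1 at 147, 168 and 159 CPM in WT and 494, 689.8 and 545 CPM in ING4-/-, and both have muscle or testis counterparts. Cox8a, the general isoform of subunit 8, was at 124, 183 and 189.8 CPM in WT and 464, 735 and 616 CPM in ING4-/-. Their log2 fold changes were 1.85 ± 0.19, 1.87 ± 0.19 and 1.87 ± 0.25. Cox7b was at 42.4, 60.3 and 69.1 CPM in WT and 184, 305 and 233 CPM in ING4-/-, a log2 fold change of 2.07 ± 0.29. No WT library reached an ING4-/- library in these genes.

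Cox7a2 and Cox7a2l differed in which ING4-/- population was highest. Cox7a2, the general isoform of subunit 7a, was at 69.9, 64.2 and 55.9 CPM in WT and 205, 339 and 217 CPM in ING4-/-, highest in ING4-/- ST-HSCs. Cox7a2l, known for joining complexes III and IV into supercomplexes, was at 59.6, 61.5 and 78.2 CPM in WT and 323, 205 and 236 CPM in ING4-/-, highest in ING4-/- LT-HSCs. Log2 fold changes were 2.00 ± 0.26 and 1.94 ± 0.25. Cox7a2l made up 41.1, 43.5 and 53.5% in WT and 56.5, 33.2 and 47.2% in ING4-/- of the counts per kb of the Cox7a genes. The share was above WT in ING4-/- LT-HSCs and below WT in ST-HSCs and MPPs, so that the means did not differ beyond the spread (46.0 ± 6.58% in WT and 45.6 ± 11.7% in ING4-/-, SD, n = 3, exact permutation p = 1, two-sided).

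The isoforms typical of other tissues were low or absent. Among these 7 genes, the coding sequences of Cox4i2, Cox6a2, Cox6b2, Cox7a1, Cox7b2, Cox8b and Cox8c were 57.6 to 69.6% identical in aligned bases to their general partner, and none shared a copy of 95% identity. Cox6a2, Cox7a1 and Cox8b are typical of heart and skeletal muscle, and Cox6b2, Cox7b2 and Cox8c of testis. Cox4i2, known from lung, replaces Cox4i1 at low oxygen. Summed muscle and testis markers were at most 10.7 and 0.118 CPM in ING4-/-, against up to 40.3 and 37.6 CPM in WT. Tnnt2, Myh6 and Myh7 among the 8 muscle markers were at 0 in every ING4-/- library, as were Tnp1, Tnp2, Akap4, Ldhc, Odf1 and Prm2 among the 8 testis markers, while Prm1 had 4 counts in ING4-/- MPPs. Prm1 and Prm2 were at 0 in WT. The part of such cells or of background in the values below was not tested.

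Cox6b2 was the tissue isoform with the most counts. It had 162, 224 and 185 counts in WT and 939, 3465 and 1926 counts in ING4-/-, or 17.1, 24.1 and 18.2 CPM in WT and 30.002, 109.6 and 56.8 CPM in ING4-/-. The groups did not overlap, ING4-/- ST-HSCs were highest and ING4-/- LT-HSCs lowest of the genotype. The log2 fold change was 1.73 ± 0.52 (adjusted p = 0.0201 by edgeR). The call was lost in 11 of 20 alternatives. Among these were the fits without ING4-/- ST-HSCs (1.16), WT LT-HSCs (1.55) or WT MPPs (1.51). Others were DESeq2 size factors (1.34), the count minimum (1.20), background subtraction (1.07, adjusted p = 0.158 by edgeR) and removal of the length trend (0.43). WT counts were 146 to 202 per kb, a density reached by at most 0.629% of the 1431 receptor genes in the same library. No annotated gene overlaps Cox6b2 exons. Cox6b2 made up 6.92, 8.38 and 6.79% in WT and 3.73, 9.21 and 6.24% in ING4-/- of the counts per kb of Cox6b1 and Cox6b2 together, and this share did not separate the genotypes (exact permutation p = 0.7, two-sided, adjusted p = 0.9).

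Cox4i2 was near background in WT. It had 20, 19 and 19 counts in WT and 209, 54 and 79 counts in ING4-/-, while 17.6, 17.9 and 14.3 counts would come from background in the WT libraries. ING4-/- LT-HSCs stood above the rest, and ING4-/- ST-HSCs were below all WT libraries in CPM. The log2 fold change was 0.83 ± 0.64 (adjusted p = 0.298 by edgeR). With background subtracted it was 2.94 and called (adjusted p = 0.0336). Estimated background made up 75.0 to 94.3% of its WT counts. Its share of the Cox4i1 and Cox4i2 counts per kb was 2.38, 1.69 and 1.65% in WT and 1.31, 0.3005 and 0.529% in ING4-/-. After subtraction the ING4-/- share was the higher one within each population, but the groups overlapped, with 0.3005% in ING4-/- ST-HSCs and 0.446% in WT MPPs.

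Cox7b2 was the only gene called lower. It had 24, 48 and 36 counts in WT and 0, 0 and 0 counts in ING4-/-. At 0, up to 3 counts remain possible, so the WT mean of 3.74 CPM was at least 40.2-fold above ING4-/-. Background would give 9.80 to 12.3 counts in WT, and 2.17 to 14.8% of the receptor genes had an equal or higher density in the same library. Being called lower was shared with 56.7% of all genes tested. Cox8c had 32, 1 and 8 counts in WT and 0, 0 and 0 counts in ING4-/-, and Cox7a1 2, 8 and 0 counts in WT and 0, 0 and 0 counts in ING4-/-. Cox8b had 2 counts in ING4-/- LT-HSCs and 0 in all other libraries, and Cox6a2 was at 0 in all 6. The level that 0 leaves possible at these depths is up to 0.323 CPM in WT and 0.0959 CPM in ING4-/-.

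**Figure D4:**
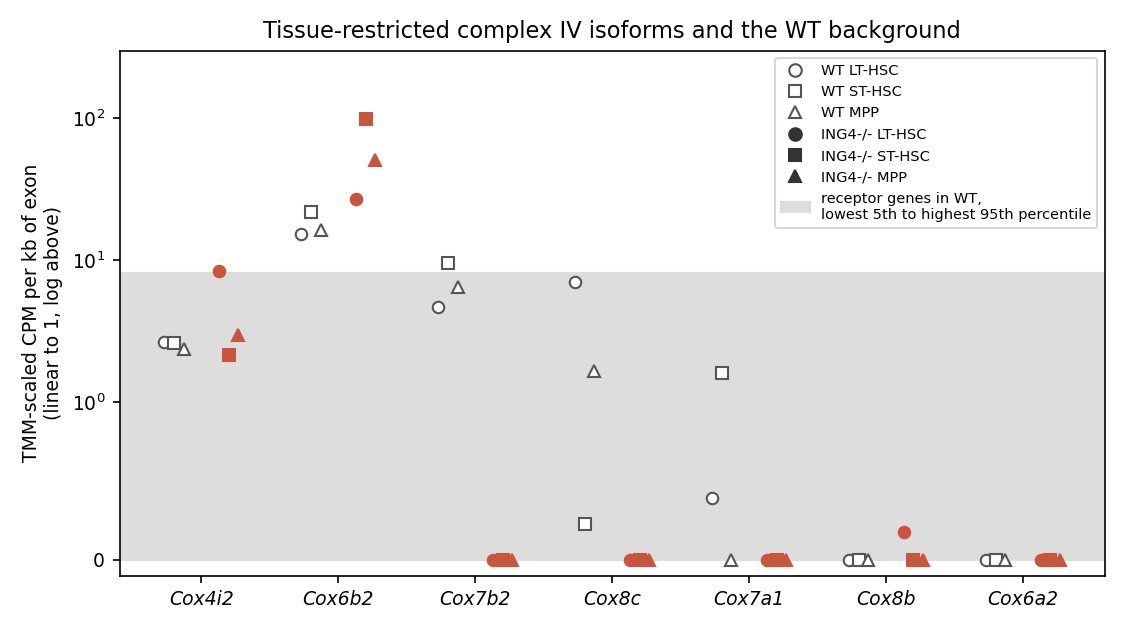
TMM-scaled CPM per kb of exon (y axis, linear to 1 and log above) of the 7 tissue isoforms of complex IV (x axis) in each library, with open WT and filled ING4-/- symbols. The grey band runs from the lowest 5th to the highest 95th percentile of receptor genes in the WT libraries. Cox6b2 is above the band in all 6 libraries, WT values of Cox4i2, Cox8c and Cox7a1 lie inside it, and Cox7b2, Cox8c and Cox7a1 are at 0 in ING4-/-.

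In the main fit ATP synthase genes rose in all parts of the enzyme except the coupling factor Atp5s. In the F1 head, Atp5a1 and Atp5b, which form the catalytic ring, were the most abundant of the 44 genes in CPM. Atp5b was at 878, 987 and 1102 CPM in WT and 1950.5, 3129.7 and 2615 CPM in ING4-/- and Atp5a1 at 544, 597 and 718 CPM in WT and 1659, 1808 and 1794 CPM in ING4-/-. Their log2 fold changes (1.37 ± 0.20 and 1.501 ± 0.15) were among the lowest of the complex. Atp5d, in the central stalk, rose by 1.496 ± 0.23, and the rotor shaft gene Atp5c1 by 2.04 ± 0.18. Atp5e, the smallest F1 subunit, was at 62.0, 70.7 and 72.2 CPM in WT and 289, 404 and 377 CPM in ING4-/-. Its lowest ING4-/- library was 4.01 times the highest WT library, and the log2 fold change was 2.38 ± 0.21 (adjusted p = 0.000657 by edgeR). With background subtraction, and with the length trend removed, only Atp5c1 and Atp5e of the 5 F1 genes were called. With the count minimum Atp5b and Atp5d lost their calls, and Atp5a1 stood at 1.00.

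The peripheral stalk holds the head still. Its genes Atp5h (1.91), Atp5j (1.86), Atp5o (1.83) and Atp5f1 (1.55) rose by these log2 fold changes. Of the exons of Atp5o, 31.3% of bases lie opposite another gene and 12.7% overlap Donson on its own strand, which leaves its counts uncertain. Atp5h has 4 copies in the annotation of at least 95% identity over at least 50% of its transcript. Their counts were 0.895 to 0.992% of those of Atp5h in ING4-/- and 5.31 to 9.503% in WT.

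Among the accessory membrane subunits, Atp5k and Atp5l, known for joining ATP synthase into dimers, lay at opposite ends in the main fit. With the length trend removed their order reversed, at 1.27 for Atp5k and 1.32 for Atp5l. Atp5k was at 16.7, 29.3 and 34.3 CPM in WT and 130.4, 180.3 and 147 CPM in ING4-/-. Its log2 fold change of 2.51 ± 0.34 was the highest of the 40 tested genes in this fit (adjusted p = 0.000657 by edgeR). With the length trend removed Atp5g1 was highest (1.67), and with background subtraction Cox4i2 was (2.94). Atp5l was at 77.5, 67.4 and 64.2 CPM in WT and 153, 240.3 and 148 CPM in ING4-/-, and its log2 fold change was 1.37 ± 0.26. Atp5l is uncertain, since background was estimated at 17.8 to 23.4% of its WT counts and 8 near-identical copies held counts equal to 2.91 to 26.5% of its own. For Atp5k, 1 near-identical copy held counts equal to 2.86 to 15.8% of its own in WT. Atp5j2 rose by 1.76 ± 0.23 and Atp5mpl by 1.96 ± 0.37, the latter from 57.6 ± 3.78 CPM in WT to 224 ± 114 CPM in ING4-/- (SD, n = 3). Usmg5, a further membrane subunit whose symbol falls outside the rule and which was chosen after its values were seen, had 402, 536 and 665 counts in WT and 7081, 13373 and 8327 counts in ING4-/- (log2 fold change 2.44 ± 0.32). Dmac2, chosen in the same way, was at 0.78 ± 0.36 and not called (adjusted p = 0.0978 by edgeR).

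Subunit c, which forms the rotor ring, is made from Atp5g1, Atp5g2 and Atp5g3. These genes encode the same mature protein behind different import sequences, and their coding sequences were 70.7 to 76.5% identical in aligned bases. Atp5g1 was at 112, 142 and 125 CPM in WT and 418, 684 and 443 CPM in ING4-/-, Atp5g2 at 47.1, 72.3 and 74.9 CPM in WT and 216, 335 and 304 CPM in ING4-/- and Atp5g3 at 141, 142 and 145 CPM in WT and 415, 664 and 574 CPM in ING4-/-. All 3 rose, by 2.03, 2.14 and 1.95 on the log2 scale, and Atp5g1 and Atp5g2 were called under all 20 alternatives. Atp5g3 was called under all but the removed length trend, where its log2 fold change was 0.98. Per kb of exon, Atp5g3 was the most abundant in every library. Its share of subunit c counts per kb was 55.9, 47.5 and 48.7% in WT and 47.04, 47.3 and 49.2% in ING4-/-.

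The makeup of subunit c did not separate the genotypes. Atp5g2 held 24.4, 31.5 and 32.7% in WT and 31.9, 31.1 and 34.0% in ING4-/- of the counts per kb, and Atp5g1 19.7, 21.0 and 18.6% in WT and 21.1, 21.6 and 16.9% in ING4-/-. WT LT-HSCs had more Atp5g3 and less Atp5g2 than the other 5 libraries. Mean shares of Atp5g3 were 50.7 ± 4.55% in WT and 47.8 ± 1.17% in ING4-/- (SD, n = 3, exact permutation p = 0.5, two-sided), and p was 0.9 for Atp5g1 and 0.5 for Atp5g2. With 3 libraries against 3, the smallest p this test allows is 0.1, and after adjustment over the 9 isoform shares no share was below 0.3. The shares of Cox4i2, Cox7b2 and Cox8c reached the smallest exact p, each with WT above ING4-/-, and that of Cox7a1 had p = 0.4.

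**Figure D5:**
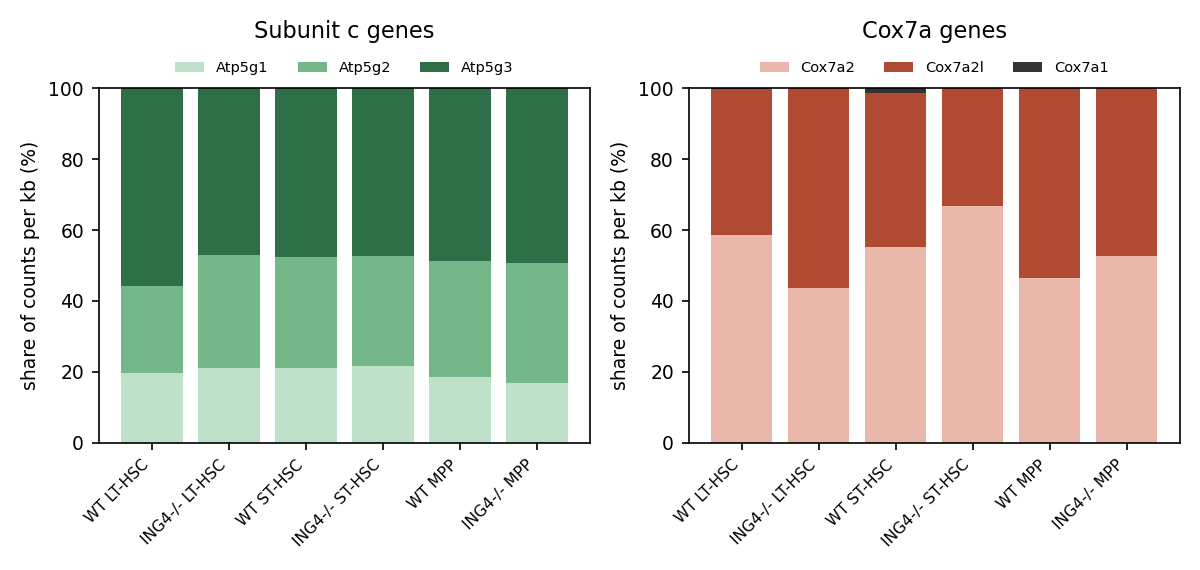
Share of counts per kb of exon (y axis, %) taken by the subunit c genes Atp5g1, Atp5g2 and Atp5g3 (left) and by Cox7a2, Cox7a2l and Cox7a1 (right) in each library (x axis). Atp5g3 takes 47.04 to 55.9% in all 6 libraries, while Cox7a2l ranges from 33.2% in ING4-/- ST-HSCs to 56.5% in ING4-/- LT-HSCs.

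Atp5s, a coupling factor of the enzyme that RefSeq now names Dmac2l, did not follow the other genes. It had 134, 152 and 182 counts in WT and 15, 1277 and 890 counts in ING4-/-, or 14.1, 16.4 and 17.9 CPM in WT and 0.479, 40.4 and 26.2 CPM in ING4-/-. ING4-/- LT-HSCs were far below the 3 WT libraries, and ING4-/- ST-HSCs and MPPs above them. The log2 fold change was 0.47 ± 1.19 (adjusted p = 0.753 by edgeR), and its sign changed without ING4-/- ST-HSCs (-0.24), with the count minimum (-0.048) and with population as a block (-0.50). No annotated gene overlaps its exons. Atp5s densities in WT were 90.2 to 122.6 counts per kb, reached by 0.210 to 3.14% of receptor genes.

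The complexes were then compared as sums over their genes. Complex III summed to 1081, 1068 and 1218 CPM in WT and 2822, 4326 and 3346 CPM in ING4-/-, in the order LT-HSCs, ST-HSCs and MPPs. Complex IV summed to 1035, 1289 and 1227 CPM in WT and 4106, 5371 and 4302 CPM in ING4-/-, and ATP synthase to 2886, 3288 and 3469.6 CPM in WT and 8218, 12353 and 9976 CPM in ING4-/-. Within each of the 3 sums, ING4-/- ST-HSCs were highest and ING4-/- LT-HSCs lowest of the genotype. The ratio of ING4-/- to WT was 2.61, 4.05 and 2.75 for complex III, 3.97, 4.17 and 3.51 for complex IV and 2.85, 3.76 and 2.88 for ATP synthase. The ratio was highest for complex IV in all 3 populations. These sums keep the WT background and the length trend. With the length trend removed, complex IV had the lowest median log2 fold change (0.65), against 0.68 for complex III and 1.00 for ATP synthase.

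A share within a library needs no scaling between libraries. Complex IV took 20.7, 22.8 and 20.7% of the counts of the 3 complexes in WT and 27.1, 24.4 and 24.4% in ING4-/-, with no overlap. ATP synthase took 57.7 to 58.7% in WT and 54.3 to 56.6% in ING4-/-, also without overlap, and complex III 18.9 to 21.6% and 18.6 to 19.6%, with overlap. The shares follow the most abundant genes of each complex, keep the WT background and the length trend, and were not tested.

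Within each population, 1 library per genotype was compared and no test was made. The median log2 ratio of the 40 tested genes was highest in ST-HSCs (2.05), followed by MPPs (1.70) and LT-HSCs (1.62), with 38, 39 and 38 genes above 0. Over all genes tested it was -4.13, -4.07 and -3.74 (LT-HSCs, then ST-HSCs, then MPPs). By complex the medians were 1.24, 2.07 and 1.56 for complex III, 1.90, 2.02 and 1.72 for complex IV and 1.62, 2.08 and 1.71 for ATP synthase. ING4-/- ST-HSCs held the highest ING4-/- CPM of 36 of the tested genes, and ING4-/- LT-HSCs the lowest of 31. Uqcrc2, Cox7a2l and Cox4i2 were instead highest in ING4-/- LT-HSCs, and Cox7b2 was at 0. In WT, MPPs were highest in 20 genes, ST-HSCs in 13 and LT-HSCs in 7.

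A test of differences among the 3 populations, with genotype in the model and 2 libraries per population, called none of the 44 genes and 0 of 31001 genes (0%) in edgeR. At an unadjusted p under 0.05 there were 425 genes, among them Cox8a. The DESeq2 likelihood ratio test called 4 genes and none of the 44. Simulated 4-fold differences in MPPs were recovered by the same edgeR fit for 198 of 200 genes among 38228. The simulation used the mean WT profile, a fixed spread between libraries and no difference between genotypes. It therefore does not give the power of the test in these data.

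The 2 complexes upstream are complex I, with 33 of its 36 nuclear subunits called higher and a median of 1.81 on the log2 scale, and complex II, with 3 of 4 genes called and a median of 1.38, against 7.98% of all genes called higher. Complex II was the lowest in median of the 5 respiratory complexes. These differences between complexes were not tested.

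The mitochondrially encoded partners could be read for only 2 of 6 genes. Mt-Co1, the catalytic core of complex IV, was at 1899, 1451 and 1385 CPM in WT and 6668, 5683 and 4347 CPM in ING4-/-. Mt-Cytb, the electron-carrying core of complex III, was at 1236, 1049 and 1011 CPM in WT and 4012, 3853 and 2989.9 CPM in ING4-/-. Both were higher in every ING4-/- library, with log2 fold changes of 1.82 ± 0.20 and 1.72 ± 0.16 (adjusted p = 0.000657 and 0.000657 by edgeR). Mt-Co2, mt-Atp6 and mt-Atp8 had at most 109 counts in any library, and mt-Co3 had 83 to 196 counts. Mt-Co2, mt-Co3 and mt-Atp6 have nuclear copies on chromosome 1 that match over 99.6 to 99.9% of the gene at 100% identity, so their counts (log2 fold changes 1.92, -2.35 and 2.34) are uncertain and mt-Atp8 was not tested.

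The assembly factors of the 3 complexes moved unevenly, and their counts stand beside 7.98% of all genes called higher and 56.7% called lower. Of 6 complex III factors, 3 rose. Uqcc2 (2.05 ± 0.25) and Uqcc3 (1.63 ± 0.36), which promote cytochrome b synthesis and assembly, were highest, and Ttc19 and Lyrm7 lowest at -2.30 ± 1.55 and -0.60 ± 0.54, neither called. Of 21 tested complex IV factors 12 rose and none fell. Coa6 (2.69 ± 0.50), which serves copper delivery, and Coa4 (2.47 ± 0.47) were highest, while Sco1 (-0.88 ± 0.41), a copper chaperone, and Coa7 (-0.04 ± 0.40) were lowest and not called. Sco2 and Pet117 had at most 2 counts. Of the 4 ATP synthase factors, the inhibitor Atpif1 (1.88 ± 0.27) and Tmem70 (1.26 ± 0.35), needed for assembly of the c ring, rose, and Atpaf1 (0.52 ± 0.45) and Atpaf2 (0.16 ± 0.33) were not called.

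Cycs, the cytochrome c that links complexes III and IV, rose from 44.7, 74.2 and 61.6 CPM in WT to 150.04, 289.8 and 204 CPM in ING4-/- (log2 fold change 1.83 ± 0.32), and Ndufa4, a complex IV-associated subunit, rose by 2.23 ± 0.25. Cyct, the testis cytochrome c, and AA467197 were at 0 in ING4-/- and had 16 to 29 and 4 to 10 counts in WT. Of the 11 transcription factors and coactivators known for nuclear respiratory genes, 1 was called higher, where 7.98% of all genes were, so the count is near that of all genes. It was Tfam (1.08 ± 0.24), which maintains mitochondrial DNA. Gabpb1, a GABP subunit that acts with the ETS factor Gabpa, was next (0.65 ± 0.31). Ppargc1a (-3.69 ± 2.22) and Sp1 (-0.97 ± 0.30) were lowest and not called (adjusted p = 0.188 and 0.0243 by edgeR, the latter short of the fold threshold), and Ppargc1a was at 0 in ING4-/- LT-HSCs and MPPs. The list had a median of -0.15, against 1.86 for the 40 tested subunits and -6.85 for all genes. Background is a large part of the WT counts of several of these factors, with an estimated 186 of 628 for Sp1 and 56.8 against 26 counted for Esrra in WT LT-HSCs. Nrf1 itself was at -0.15 ± 0.33 (adjusted p = 0.716 by edgeR).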

How the data were processed

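Bulk RNA-seq of 6 libraries was used. The authors deposited raw counts per gene for each library, and their processing notes name build mm10. The aligner, counter, annotation release and strand setting are not given in the sources used here. Gene symbols and biotypes came from GENCODE for GRCm38, in which 49056 of 49315 identifiers were found and 259 were not. Exonic lengths came with the deposited counts, and 36 of the 44 genes had an identical span in GENCODE. Promoters came from RefSeq. Protein sequences were not used here, and coding sequences were aligned instead.

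Libraries were grouped by the genotype and population in their titles. Counts were scaled by TMM and tested across all genes with edgeR 4.0.16 (quasi-likelihood test, genes kept by filterByExpr, 3 ING4-/- against 3 WT libraries) in R 4.3.3, with Benjamini-Hochberg adjustment. Calls needed an adjusted p below 0.05 with a log2 fold change beyond 1 in either direction. Ratios within a population used a prior count of 2. Isoform shares were tested by exact permutation in Python 3.11.15 (scipy 1.17.1). Background was the density of reads on 1431 olfactory and vomeronasal receptor genes times exonic length. Copies were sought with BLAST 2.17.0.

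The alternatives were DESeq2 1.42.0 (its size factors and its test), upper-quartile scaling, no filter, a minimum of 10 counts in every library with and without removal of the length trend, background subtraction, thinning to the smallest total, protein-coding genes only, population as a block, and leaving out each library or population. Background subtraction with a minimum of 10 counts was added after the data were seen. Deviations of WT and ING4-/- libraries from their group means correlated weakly within each population (r = 0.143, 0.110 and 0.121 in LT-HSCs, ST-HSCs and MPPs over 9673 genes). The main fit did not use this pairing by population, and the fit with population as a block did. On simulated data, the genotype fit recovered 198 of 200 genes changed 4-fold, with 7 false calls among 38214 genes. Apart from the changed genes, every simulated library had the mean WT profile and a fixed spread. These rates need not hold for the real libraries.

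The genes, lists, roles and tests were chosen with earlier results of these data known. Values in every library are given for all isoform groups, for the 2 highest and 2 lowest genes of each complex and for genes not called; others were named for their role. No column of other samples was present. Intervals for a count of 0 cover counting error only. A list of lineage markers is not reported here.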

Additional observations from a re-analysis of the deposited data

Results flagged for a closer look

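The ING4-/- to WT ratio pointed in opposite directions in different populations for 2 tested genes. For Atp5s the log2 ratio was below 0 in LT-HSCs (-4.63) and above 0 in ST-HSCs (1.30) and MPPs (0.55). For Cox4i2 it was above 0 in LT-HSCs (1.62) and MPPs (0.31) and below 0 in ST-HSCs (-0.25). Each ratio rests on 1 library per genotype, so the difference between populations was not tested.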

How the results depend on the processing

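All 37 genes called higher stayed above 0 under every scaling and under background subtraction, and 18 of the 37 kept an adjusted p under 0.05 in all 20 alternatives. The other scalings moved the median log2 fold change of all genes from -6.85 to -7.17 (DESeq2 size factors) and -6.35 (upper-quartile), and the other gene sets to 0.02 (minimum of 10 counts), -0.93 (background subtraction) and -1.28 (protein-coding genes). On the plain log2 scale, not relative to these medians, the median over the tested subunits was 1.496 with DESeq2 size factors and 1.497 with the DESeq2 test, 2.46 with upper-quartile scaling, 1.36 with the count minimum, 1.09 with background subtraction, 0.81 with the length trend removed, 1.51 with protein-coding genes and 0.99 with subtraction and the count minimum together. For complex III it was 2.35 with upper-quartile scaling, 1.24 with the count minimum, 0.96 with subtraction, 0.68 with the length trend removed and 0.86 with subtraction and the count minimum. For complex IV these were 2.47, 1.38, 1.16, 0.65 and 1.07, with 1.52 for DESeq2 size factors and for the DESeq2 test, 1.67 after thinning, 1.53 with protein-coding genes and 1.72 to 2.03 with each library left out. For ATP synthase they were 2.46, 1.35, 1.10, 1.00 and 1.00, with 1.49 for both DESeq2 alternatives and 1.51 with protein-coding genes. Genes called higher numbered 32 with DESeq2 size factors, 33 with the DESeq2 test, 33 with protein-coding genes and 35 after thinning. They numbered 12 with the length trend removed, 18 with subtraction and the count minimum, and 34 to 37 with each library left out. Without the ST-HSC or without the MPP libraries they numbered 34. Genes called lower numbered 2 without a filter and without the ST-HSC libraries, 0 under each of the 3 alternatives with a count minimum, for which Cox7b2 was not tested, and 1 to 2 with each library left out (2 without WT ST-HSCs). The Atp5s log2 fold change turned below 0 with the count minimum (-0.048), population as a block (-0.50), without ING4-/- ST-HSCs (-0.24), without both ST-HSC libraries (-0.25), with subtraction (-0.039), with the length trend removed (-0.72) and with subtraction and the count minimum (-0.135). Once the length trend was removed, Cox4i2 was at -0.39, Uqcrfs1 at -0.10 and Cyc1 at -0.028. The ING4-/- minus WT share, in percentage points, ranged with each library left out from -0.82 to 1.57 for Atp5g1, -2.38 to 0.36 for Cox6b2 and -5.83 to 5.80 for Cox7a2l, and after subtraction it was 0.45 for Cox4i2 and 0 for Cox7a1. The block changed no other call count. The cause of these shifts was not tested. WT depth limits low genes, since a count of 0 allows up to 0.323 CPM.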
